A study of Arabidopsis thaliana with 6 samples.

Results

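The xyloglucan endotransglucosylase/hydrolases (XTHs) of Arabidopsis thaliana, XTH1 to XTH33, were followed through 3 doses of melatonin. The members were taken by their locus identifiers, and all 33 were found among the 32678 genes of the read count table. RNA was sequenced from wild-type plants 7 days old, raised on plates of MS salts and exposed for 12 h to melatonin, a tryptophan derivative, at 0 (control), 100 or 1000 µM. Each dose had 2 libraries, 6 in all, with totals between 6410046 and 7723602 counts. Rosette leaf is the labelled tissue. Whether both libraries at a dose are from different plants or plates is not recorded, so each p-value reflects library-to-library spread that could be technical.

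XTHs act in the plant cell wall on xyloglucan, the main hemicellulose of the growing wall in this species. The enzyme cuts a xyloglucan chain and either joins the cut end to another chain, which is transglucosylase activity, or transfers it to water, which is hydrolase activity. The family is thought to remodel walls during cell expansion, organ growth and responses to touch, light and hormones. By the classical grouping of their sequences XTH1 to XTH11 form group I, XTH12 to XTH26 group II and XTH27 to XTH33 group III.

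The active site lies in a conserved stretch of 9 codons, which a search of the translated coding sequences found once in 32 of the 33 members. In 22 members it encodes the same 9 residues. The coding bases are shown for the members whose changes are described below, from RefSeq's assembly TAIR10.1, with the codons of the 3 acidic residues of the active site in capitals.
XTH15: gacGAGataGACtttGAGtttctaggt
XTH16: gacGAGataGACtttGAGtttcttggt
XTH23: gacGAGattGACtttGAGttcttggga
XTH24: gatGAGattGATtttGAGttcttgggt
XTH30: gacGAGttaGACataGAGtttctaggg
XTH31: gatGAGgtcGATatcGAGtttctaggg
XTH33: gacGAGataGACataGAAttgttgggt
The first 4 encode the same residues. XTH30, XTH31 and XTH33 each encode 2 other residues than XTH16, outside the 3 acidic positions. All 3 belong to group III, but so do XTH27 and XTH28, which encode the same 9 residues as XTH16. XTH9, of group I, also encodes 2 other residues.

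Of the 33 members, 29 had counts in every library and 27 passed the filter on low counts. XTH1, XTH2 and XTH3 had 0 counts in all 6 libraries, where 3 counts would correspond to between 0.379 and 0.466 CPM. CPM is the field's usual depth-scaled count, taken here over library sizes adjusted by TMM. Of the other members that were not tested, XTH29 had 0 to 2 counts, XTH21 had 2 to 5 and XTH10 had 2 to 11. XTH21 is known from roots, where it supports growth of the primary root. The limit of 3 counts takes in counting error alone. Whether PCR copies of a molecule were counted as separate reads is not known here.

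Levels of different genes were compared as CPM per kb of annotated exon. In the controls XTH24 (MERI5, first found as a meristem transcript) stood highest with 1648 ± 32.1 CPM per kb (SD, n = 2). XTH4, which takes part in secondary growth of the stem, followed with 792 ± 3.3 and XTH22 (TCH4, the touch-induced member) with 352 ± 36.1 CPM per kb. XTH7 had 279 ± 9.6 and XTH27, known from leaf veins, 245 ± 7.6 CPM per kb. The lowest level among members with counts in every library was that of XTH21, at 0.47 CPM per kb. In this order of 29 members, 5 of the 28 neighbouring pairs had overlapping control libraries: XTH6 and XTH9, XTH31 and XTH19, XTH19 and XTH26, XTH13 and XTH12, and XTH5 and XTH10. At 1000 µM the same measure placed XTH23 at position 4 instead of 8, XTH30 at 7 instead of 14 and XTH31 at 12 instead of 20. XTH33 moved from position 13 to 15 and XTH6 from 9 to 14.

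**Figure D1:**
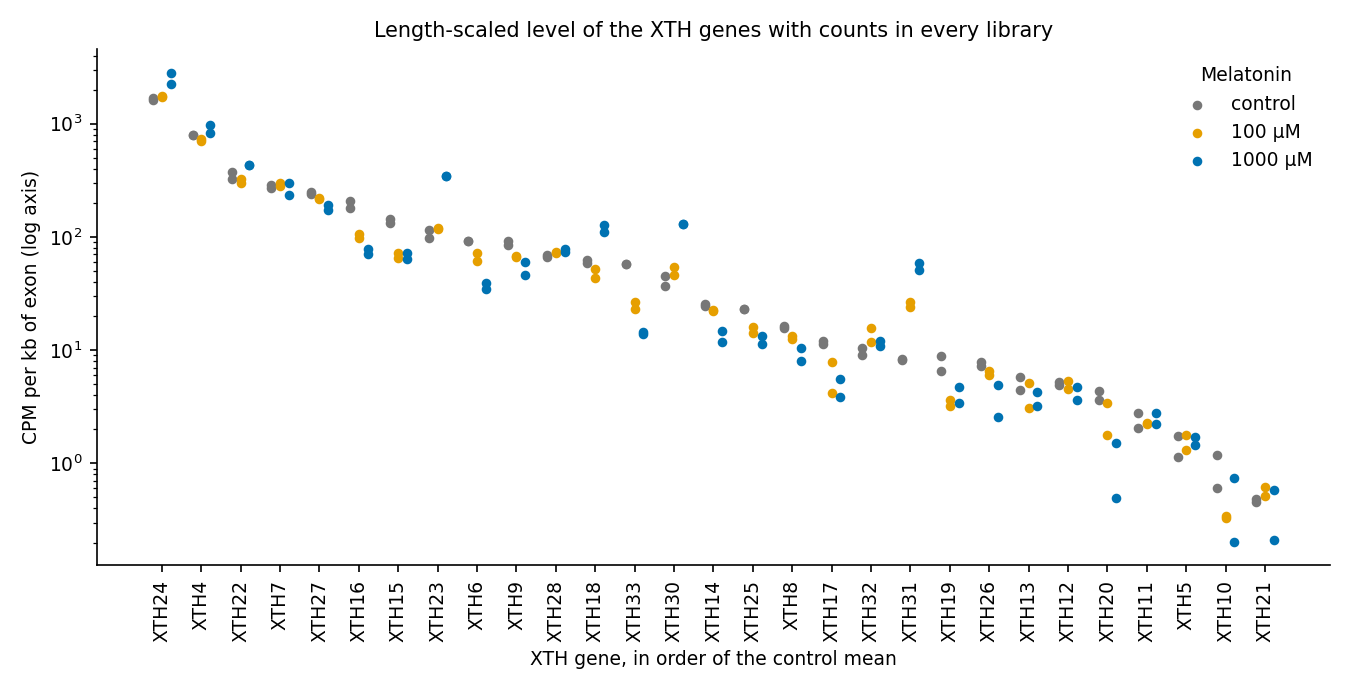
Level of the 29 XTH genes with counts in every library, in CPM per kb of exon on a log axis, with 1 point per library and genes in order of the control mean. XTH24 stands highest at every dose, and XTH23, XTH30 and XTH31 stand higher at 1000 µM than in the controls.

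XTH transcripts made up between 0.545% and 0.732% of all counts in the 6 libraries. The summed level of the 33 members was 5952 and 5764.5 CPM in the controls, 5399 and 5565 CPM at 100 µM, and 7758 and 6693 CPM at 1000 µM. Both 1000 µM libraries lay above the other 4, and both 100 µM libraries lay below the controls. The mean gain at 1000 µM over the control was 1367 CPM, of which XTH24 alone gave 1058 CPM and XTH23 gave 332 CPM. XTH24 held 34.0% and 34.1% of the family's CPM in the control libraries, 38.9% and 38.5% in those of 100 µM, and 44.0% and 40.2% in those of 1000 µM. The sum was not tested, because the members were chosen as a family and 1 gene dominates it. It hides opposite changes: the 13 members called as falling at 1000 µM went from 1237 to 664 CPM in sum, and the 6 called as rising from 2844 to 4619 CPM, both sums being defined by those calls.

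**Figure D2:**
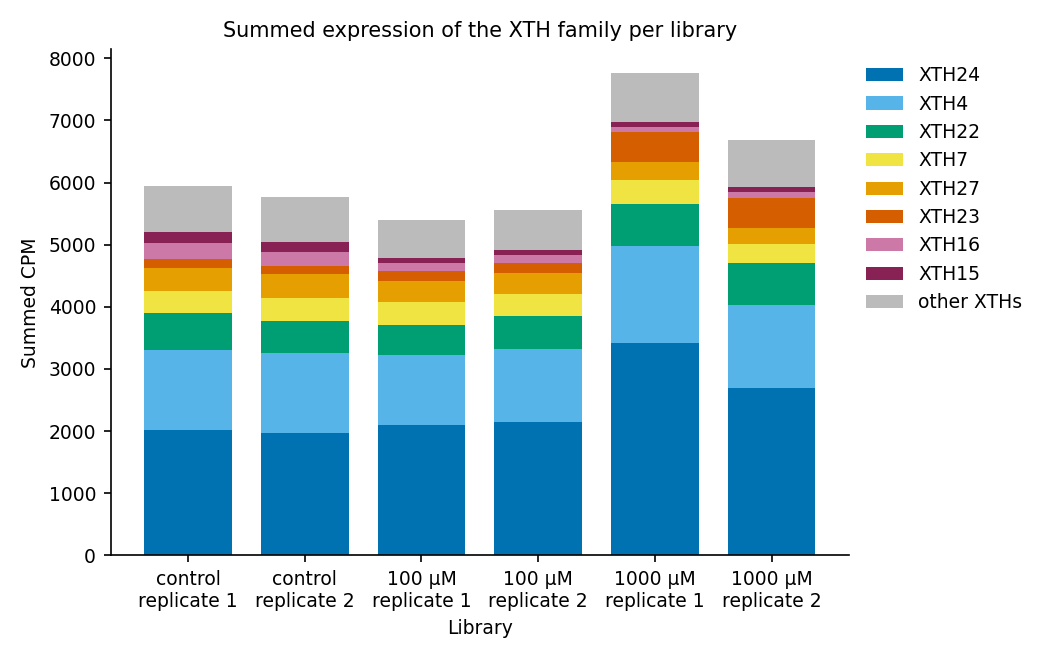
Summed CPM of all 33 XTH genes in each of the 6 libraries, stacked by gene, with the 8 named genes in colour and the rest in grey. The 1000 µM libraries reach 7758 and 6693 CPM, and XTH24 is the largest block in every library.

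At 1000 µM the family split. XTH31, XTH23, XTH30 and XTH18 rose between 1.97-fold and 6.58-fold, whereas XTH33, XTH16, XTH6, XTH17 and XTH15 fell by 2.04-fold to 4.03-fold, as did XTH20, with few counts, by 3.85-fold. Of the 27 tested members, 6 rose and 13 fell in edgeR's quasi-likelihood test at an adjusted p under 0.05, so that 70.4% were called. Among all 18380 tested genes 29.6% were called, 15.2% rising and 14.5% falling. The median log2 change was -0.44 over the tested members and -0.013 over all tested genes. In bulk RNA, fewer cells of a type and less RNA per cell cannot be told apart.

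At 100 µM the same test called 1 rise and 7 falls among the 27 members, or 29.6%, against 3.32% of all tested genes, 1.79% rising and 1.53% falling. XTH31 was the rising gene, and XTH33, XTH15, XTH16, XTH19, XTH17, XTH25 and XTH6 fell. The median log2 change was -0.17 over the tested members and -0.0054 over all tested genes. Between the doses, 7 members were higher and 5 lower at 1000 µM than at 100 µM, or 44.4%, against 16% of all tested genes, 8.65% higher and 7.3% lower. The 2 comparisons with the control share the control libraries and are not independent. When any 1 of the control or 100 µM libraries was left out, 4 or 5 members and 101 to 191 of all genes were called at 100 µM, instead of 8 and 610. Without either 1000 µM library, which enters through the shared estimate of spread, the counts were 11 members and 1749 or 1757 genes.

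**Figure D3:**
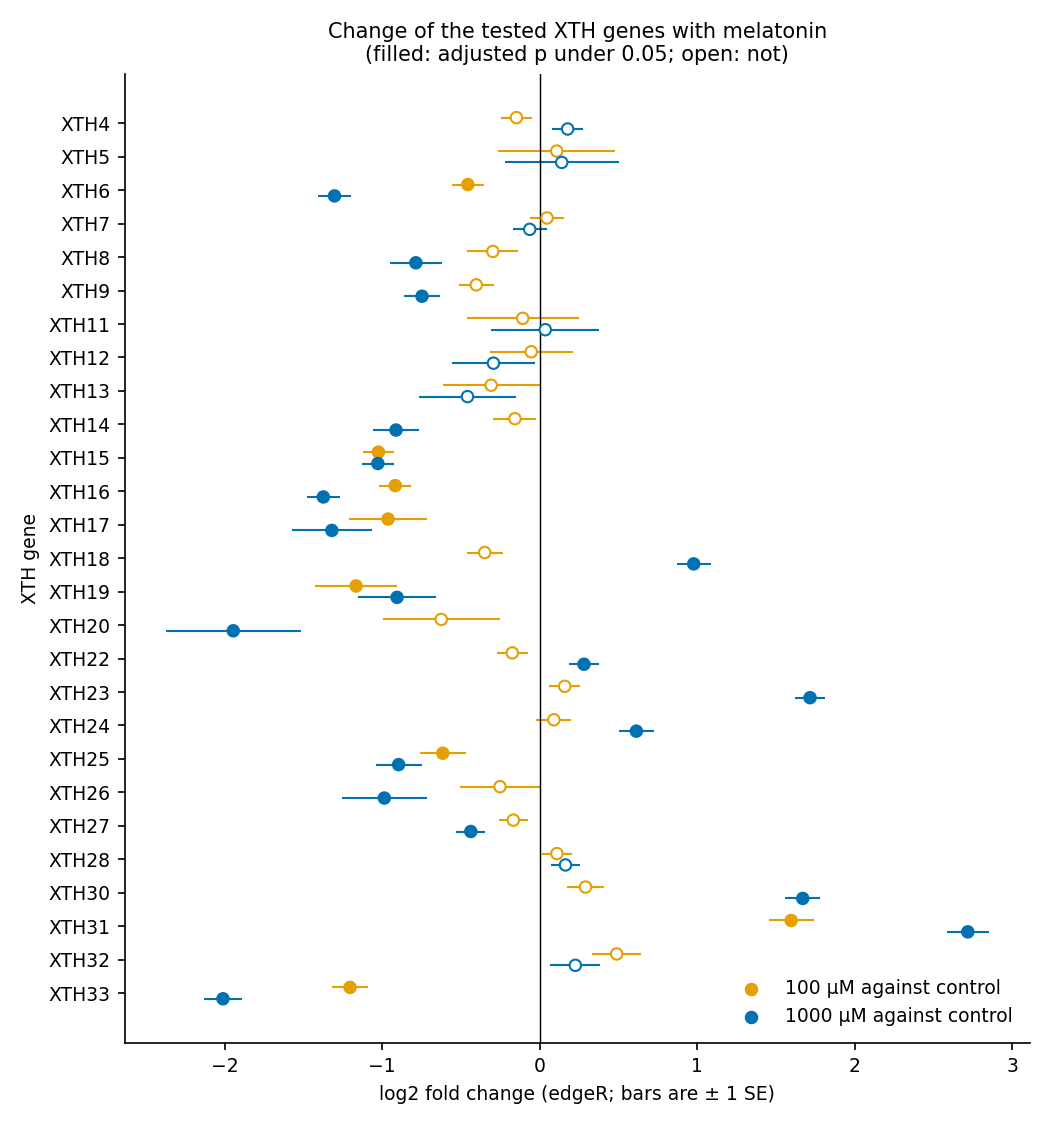
Log2 fold change of the 27 tested XTH genes at 100 µM and 1000 µM against the control, with bars of ± 1 SE from edgeR; filled points passed an adjusted p of 0.05. XTH31 lies farthest to the right at both doses (1.60 and 2.72), and XTH33 farthest to the left (-1.20 and -2.01).

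Group I, with 7 tested members, had 3 falls and 0 rises at 1000 µM (median log2 change -0.063). Group II, with 14 tested members, had 8 falls and 4 rises (median -0.90), and group III, with 6, had 2 falls and 2 rises (median 0.20). At 100 µM the calls were 1 fall in group I, 5 falls in group II, and 1 fall and 1 rise in group III. The shares called were 42.9%, 85.7% and 66.7% in groups I, II and III at 1000 µM, against 29.6% of all tested genes, and 14.3%, 35.7% and 33.3% at 100 µM, against 3.32%. The groups were not tested against each other.

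XTH31 (AT3G44990), a group III member whose protein is known mainly as a xyloglucan hydrolase, rose most in the family. Its level was 11.5 and 11.8 CPM in the controls, 36.8 and 33.6 CPM at 100 µM, and 82.5 and 70.9 CPM at 1000 µM. The 3 groups did not overlap, and each dose lay above the one before. The log2 change was 1.60 ± 0.14 at 100 µM (SE, adjusted p = 4.81e-06), 2.72 ± 0.13 at 1000 µM (adjusted p = 1.03e-10), and 1.12 ± 0.11 between the doses (adjusted p = 2.39e-06). XTH32 (AT2G36870), its closest relative by coding sequence with 67.05% identity and also known as a hydrolase, was not called. It had 17.3 and 20.1 CPM in the controls, 29.8 and 22.7 CPM at 100 µM, and 20.8 and 23.0 CPM at 1000 µM. The log2 change of XTH32 was 0.49 ± 0.16 at 100 µM, with a 95% interval of 0.16 to 0.82 (adjusted p = 0.115), and its interval at 1000 µM was -0.11 to 0.56. At 100 µM it was called as higher without a filter, when only the control and 100 µM groups were fitted, and without 1000 µM replicate 1 or 2 (adjusted p = 0.0251 to 0.0375).

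XTH30 (AT1G32170), another group III member, whose loss is reported to raise salt tolerance, changed at the higher dose. It had 62.9 and 51.5 CPM in the controls, 64.7 and 75.2 CPM at 100 µM, and 182.1 and 181.8 CPM at 1000 µM. The log2 change was 0.29 ± 0.12 at 100 µM (adjusted p = 0.223) and 1.67 ± 0.11 at 1000 µM (adjusted p = 4.08e-09), and the doses differed by 1.38 ± 0.11 (adjusted p = 1.27e-07). XTH27 (AT2G01850) fell from 370.8 and 387.4 CPM to 293.7 and 266.4 CPM at 1000 µM (log2 change -0.44 ± 0.09, adjusted p = 0.00152). XTH28 (AT1G14720), its closest relative and known from stamen filaments, had a log2 change of 0.16 at 1000 µM with a 95% interval of -0.033 to 0.36 (adjusted p = 0.202, and 0.0460 without 1000 µM replicate 2).

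XTH33 (AT1G10550), also of group III and predicted to sit in the plasma membrane, had the lowest log2 estimate among the tested members at both doses, within the error of XTH19 at 100 µM (-1.17 ± 0.26) and of XTH20 at 1000 µM (-1.95 ± 0.43). Its level was 69.9 and 69.3 CPM in the controls, 32.4 and 28.0 CPM at 100 µM, and 16.9 and 17.6 CPM at 1000 µM. The 3 groups did not overlap, and each dose lay below the one before. The log2 change was -1.20 ± 0.11 at 100 µM, -2.01 ± 0.12 at 1000 µM (adjusted p = 1.10e-09) and -0.81 ± 0.13 between the doses (adjusted p = 0.000314).

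XTH23 (AT4G25810) and XTH22 (AT5G57560) are close relatives of group II, with 80.9% identical coding bases. XTH23 had 156 and 134 CPM in the controls, 164 and 160 CPM at 100 µM, and 477 CPM in both 1000 µM libraries. The log2 change was 0.16 ± 0.10 at 100 µM (adjusted p = 0.486) and 1.72 ± 0.10 at 1000 µM (adjusted p = 6.28e-10), and 1.56 ± 0.10 between the doses (adjusted p = 1.13e-08). XTH22 had 599.7 and 518.6 CPM in the controls, 475.6 and 515.7 CPM at 100 µM, and 679.6 and 679.3 CPM at 1000 µM, and so moved far less on the log scale. Its rise of 0.28 ± 0.10 on the log2 scale at 1000 µM (adjusted p = 0.0379) was not called without control replicate 1 or 2 (adjusted p = 0.0650 and 0.417), or without 100 µM replicate 1 or 2 (0.0823 and 0.0847), or when the control and 1000 µM groups were fitted alone (0.0883). Between the doses XTH22 differed by 0.46 ± 0.10 (adjusted p = 0.00365, and 0.120 without 100 µM replicate 1). Of the other touch genes, TCH3 (AT2G41100), a calmodulin-like protein, fell by 0.38 on the log2 scale at 100 µM and by 0.28 at 1000 µM (adjusted p = 0.0249 and 0.0245). Without any 1 of the control or 100 µM libraries TCH3 was called at neither dose (adjusted p = 0.234 to 0.362 at 100 µM and 0.0696 to 0.205 at 1000 µM), nor at 1000 µM when only the control and that dose were fitted (0.0828). CAM2 (AT2G41110), a calmodulin, rose by 0.38 at 1000 µM (adjusted p = 0.0178), a call lost without control replicate 1 or 2 (0.114 and 0.0937), without 1000 µM replicate 1 (0.0695) or with DESeq2 (0.115). TCH2 (AT5G37770) had a log2 change of 0.017 (adjusted p = 0.923).

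XTH24 (AT4G30270), the most abundant member, had 2022 and 1967 CPM in the controls, 2101 and 2144 CPM at 100 µM, and 3413 and 2692 CPM at 1000 µM. Both 1000 µM libraries were highest, but they differed from each other more than the pairs of the other doses did. The rise at 1000 µM was 0.61 ± 0.11 on the log2 scale (adjusted p = 0.000481). Against 100 µM it was 0.52 ± 0.11 (adjusted p = 0.00357), a call lost without 100 µM replicate 1 or 2 (adjusted p = 0.0962 and 0.0754). XTH4 (AT2G06850), second in abundance, did not pass against the control at either dose with all 6 libraries. It had 1276 and 1283 CPM in the controls, 1125 and 1185 CPM at 100 µM, and 1561 and 1334 CPM at 1000 µM. Its log2 change at 1000 µM was 0.18 ± 0.10 and hung on single libraries. Leaving out 1 library gave 0.066 to 0.30, the highest value being that without 1000 µM replicate 2. The difference between its doses passed (log2 change 0.33 ± 0.10, adjusted p = 0.0354), but not without any 1 of the control or 100 µM libraries (adjusted p = 0.0979 to 0.301) or when those 2 dose groups were fitted alone (0.117).

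**Figure D4:**
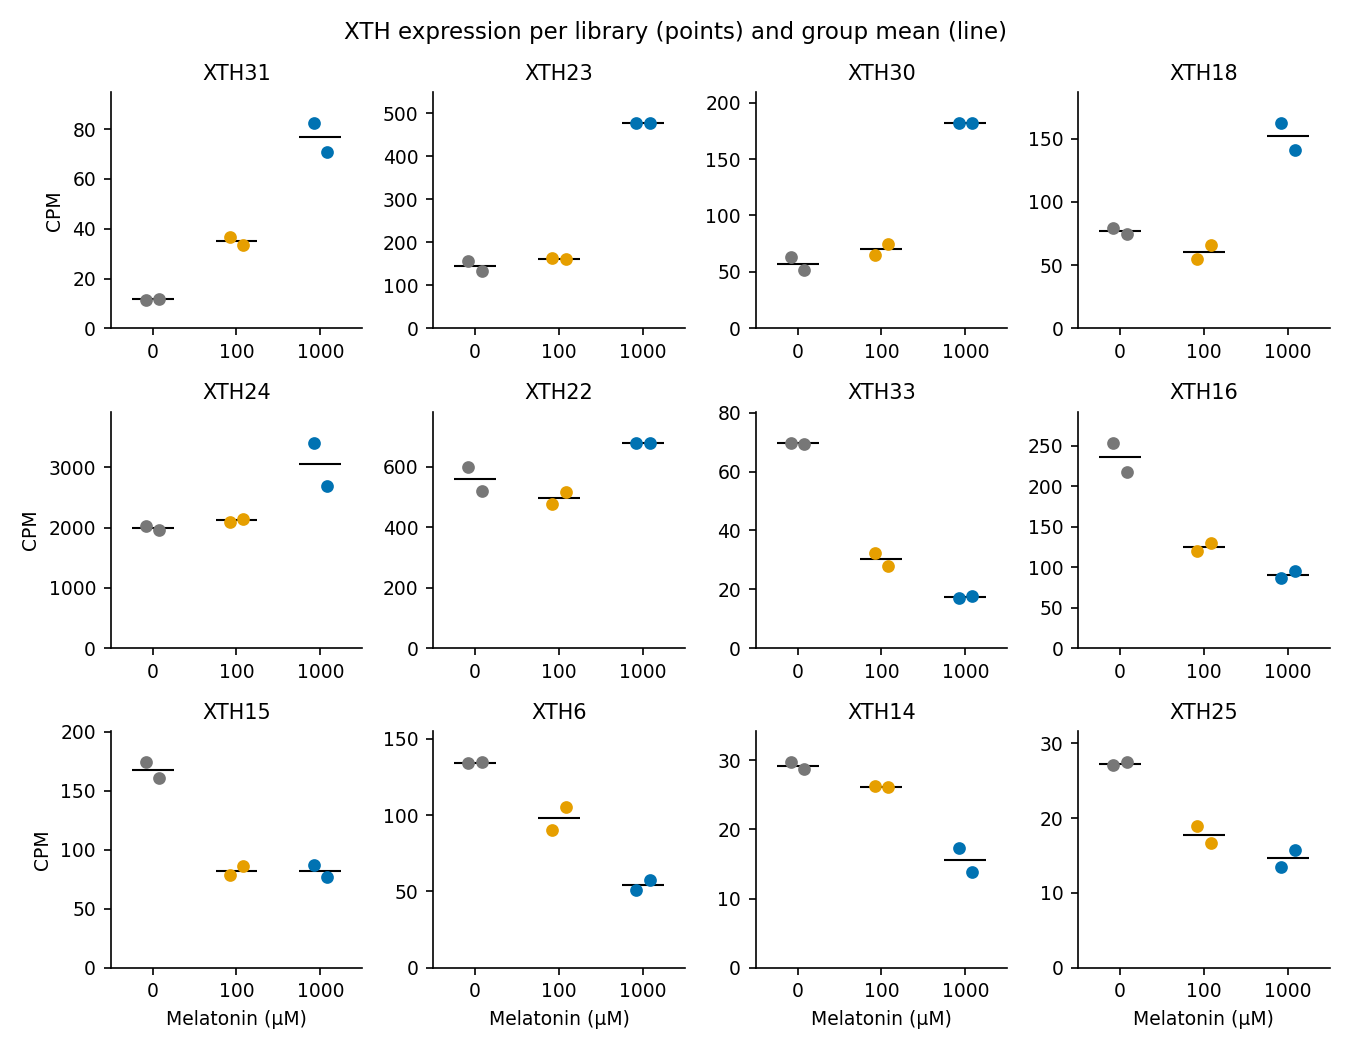
CPM of 12 XTH genes by melatonin dose in µM, with 1 point per library, the group mean as a line, and each vertical axis starting at 0. XTH31 is higher and XTH33, XTH16 and XTH6 are lower at each successive dose, XTH23, XTH30 and XTH18 are raised at 1000 µM, and XTH15 is at the same level at both doses.

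XTH15 (XTR7, AT4G14130) and XTH16 (AT3G23730), with 81.7% identical coding bases, are known as genes that shade from neighbouring plants induces. XTH15 had 174 and 161 CPM in the controls, 78.3 and 86.4 CPM at 100 µM, and 87.1 and 77.2 CPM at 1000 µM. Its fall was thus as large at the lower dose, with log2 changes of -1.02 ± 0.10 at 100 µM and -1.03 ± 0.10 at 1000 µM. Between the doses the 95% interval of the log2 change was -0.22 to 0.21. XTH16 had 254 and 218 CPM in the controls, 120 and 130 CPM at 100 µM, and 86.7 and 95.2 CPM at 1000 µM. Unlike for XTH15, the XTH16 groups did not overlap between the doses, which differed by -0.46 ± 0.10 (adjusted p = 0.00580, and 0.117 without 100 µM replicate 2). Exons of XTH15 overlap those of AT4G14120 on the other strand, and without a stated strand setting reads of the pair cannot be told apart.

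The shade-induced members, taken as XTH9, XTH15, XTH16, XTH17 and XTH19, gave 5 falls among 5 genes at 1000 µM, where 14.5% of all tested genes fell, and 4 among 5 at 100 µM, where 1.53% fell. Among all 27 tested XTH members 13 fell at 1000 µM and 7 at 100 µM. The median log2 changes of the 5 were -1.03 and -0.96, against -0.44 and -0.17 over all tested members. Over all tested genes the medians were -0.013 and -0.0054. The shade-induced list was put together with earlier results of these data known. XTH9 (AT4G03210), known from shoot apices and secondary growth, had 141 and 131 CPM in the controls, 105 and 101 CPM at 100 µM, and 70.6 and 90.8 CPM at 1000 µM. Its fall at 1000 µM passed (log2 change -0.75 ± 0.11, adjusted p = 6.64e-05), and at 100 µM the log2 change was -0.40 ± 0.11 (adjusted p = 0.0564). The 100 µM fall was called without a filter (adjusted p = 0.0049) or when only the control and 100 µM groups were fitted (0.000321). The doses differed by -0.34 ± 0.11 (adjusted p = 0.0467), but not without any of the control or 100 µM libraries or without 1000 µM replicate 1 (adjusted p = 0.0773 to 0.292), with DESeq2 (0.143) or when those 2 dose groups were fitted alone (0.0749).

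Neighbouring or near-identical members did not always move together. XTH17 to XTH20 have between 84.3% and 92.2% identical coding bases, and XTH18 and XTH19 lie next to each other on chromosome 4. The stretches of 120 coding bases in which XTH18 and XTH19 are most alike, with 4 differing bases in capitals, show how near the pair is.
XTH18: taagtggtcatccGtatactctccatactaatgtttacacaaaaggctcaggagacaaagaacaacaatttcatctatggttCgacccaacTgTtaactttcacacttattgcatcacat
XTH19: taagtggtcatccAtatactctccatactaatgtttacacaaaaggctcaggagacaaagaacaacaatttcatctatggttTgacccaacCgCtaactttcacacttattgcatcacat
XTH18 (AT4G30280) had 79.6 and 74.3 CPM in the controls, 55.03 and 65.87 CPM at 100 µM, and 162 and 141 CPM at 1000 µM. It was lower in both 100 µM libraries (log2 change -0.35 ± 0.11, adjusted p = 0.122), rose at 1000 µM (0.98 ± 0.11, adjusted p = 2.37e-06) and differed between the doses by 1.33 ± 0.11 (adjusted p = 2.43e-07). XTH19 (AT4G30290) had 8.7 and 11.8 CPM in the controls, 4.3 and 4.8 CPM at 100 µM, and 4.6 and 6.3 CPM at 1000 µM. Its falls were 1.17 ± 0.26 on the log2 scale at 100 µM (adjusted p = 0.0175) and 0.91 ± 0.25 at 1000 µM (adjusted p = 0.00975). XTH17 (AT1G65310) had 14.1 and 15.0 CPM in the controls, 5.2 and 9.8 CPM at 100 µM, and 6.9 and 4.8 CPM at 1000 µM. Its log2 changes were -0.96 ± 0.25 (adjusted p = 0.0417) and -1.32 ± 0.25 (adjusted p = 0.000720). XTH20 (AT5G48070) had 35 and 45 reads in the controls, 32 and 16 reads at 100 µM, and 5 and 17 reads at 1000 µM, a log2 change of -1.95 ± 0.43 (adjusted p = 0.00223). It became -2.98 without 1000 µM replicate 2 and -1.38 without replicate 1. So at 1000 µM XTH18, which had the highest level per kb of the 4 in the controls, rose and the other 3 fell. At 100 µM all 4 log2 changes were negative, with 95% intervals of -0.59 to -0.11 for XTH18 and -1.41 to 0.16 for XTH20. XTH18 was called as lower at 100 µM without a filter (adjusted p = 0.0428) or when only the control and 100 µM groups were fitted (0.0134). How reads matching several copies were counted is not given, which leaves these values less certain. The longest run of identical coding bases was 68 between XTH18 and XTH19 and 47 between XTH17 and XTH18.

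At 100 µM XTH19 was no longer called once control replicate 2 or one of the 100 µM libraries was dropped (adjusted p = 0.163 to 0.249). At 1000 µM it ended without control replicate 2 (adjusted p = 0.152) or 1000 µM replicate 1 (0.0566). DESeq2 called it at neither dose (adjusted p = 0.0962 and 0.0866). The call of XTH17 at 100 µM ended without control replicate 1, control replicate 2 or 100 µM replicate 1 (adjusted p = 0.160, 0.224 and 0.457), with a log2 change of -0.58 in the last case and -1.48 without 100 µM replicate 2. DESeq2 did not call it either (adjusted p = 0.171).

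On chromosome 4, XTH23 and XTH14 are neighbours, 363 bases apart. XTH14 (AT4G25820), known from root walls, fell while XTH23 rose: it had 29.7 and 28.7 CPM in the controls, 26.2 and 26.1 CPM at 100 µM, and 17.3 and 13.8 CPM at 1000 µM (log2 change -0.91 ± 0.14, adjusted p = 0.000111). On chromosome 5, XTH25 lies 565 bases from XTH22. XTH25 (AT5G57550) fell from 27.1 and 27.5 CPM to 18.9 and 16.6 CPM at 100 µM (log2 change -0.62 ± 0.15, adjusted p = 0.0249) and to 13.4 and 15.8 CPM at 1000 µM (-0.90 ± 0.15, adjusted p = 0.000162). The 100 µM call ended without any 1 of the control or 100 µM libraries (adjusted p = 0.130 to 0.332) and with DESeq2 (0.182). XTH12 and XTH13, with 89.7% identical coding bases, were not called at either dose, at 3.4 to 6.4 CPM.

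The remaining falls were in group I and in a root gene. XTH6 (AT5G65730) had 134.0 and 134.6 CPM in the controls, 90.2 and 105.6 CPM at 100 µM, and 51.1 and 57.6 CPM at 1000 µM. It fell by 0.46 ± 0.10 on the log2 scale at 100 µM (adjusted p = 0.0182) and by 1.30 ± 0.11 at 1000 µM (adjusted p = 5.78e-08). The 100 µM call ended without any 1 of the control or 100 µM libraries (adjusted p = 0.0970 to 0.361), while the doses differed by -0.85 ± 0.11 (adjusted p = 2.61e-05). XTH8 (AT1G11545) fell from 19.9 and 19.0 CPM to 9.8 and 12.6 CPM at 1000 µM (log2 change -0.79 ± 0.17, adjusted p = 0.00164). XTH26 (AT4G28850), expressed in root hairs, went from 9.3 and 8.5 CPM to 3.0 and 5.8 CPM (-0.99 ± 0.27, adjusted p = 0.0109). Its call ended without control replicate 1 (adjusted p = 0.0701), with DESeq2 (0.0660), or without 1000 µM replicate 1 (0.0980), where the log2 change was -0.60, against -1.53 without 1000 µM replicate 2.

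With all 6 libraries, XTH7, XTH5 and XTH11 were not called in any comparison, nor were XTH12, XTH13, XTH28 and XTH32. XTH7 was abundant, with 350 and 368 CPM in the controls and 384 and 303 CPM at 1000 µM, and its log2 change there had a 95% interval of -0.29 to 0.16. Without 1000 µM replicate 1 it was called as lower at 1000 µM (log2 change -0.24, adjusted p = 0.0125) and between the doses (-0.29, adjusted p = 0.00469). XTH5 and XTH11 lay between 2.2 and 3.5 CPM in every library. Their intervals at 1000 µM were wide, -0.62 to 0.90 and -0.69 to 0.76 on the log2 scale.

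Of the 8 tested members known from roots (XTH12, XTH13, XTH14, XTH17, XTH18, XTH19, XTH20 and XTH26), 5 fell and 1 rose at 1000 µM, and 2 fell at 100 µM, or 75% and 25% called, against 29.6% and 3.32% of all tested genes. Over all 27 tested XTH members the shares called were 70.4% and 29.6%. The median log2 changes of the 8 were -0.91 and -0.33, against -0.44 and -0.17 over all tested XTH members. Over all tested genes the medians were -0.013 and -0.0054. XTH17 and XTH19 were also counted among the shade-induced members. Markers of roots were present in these libraries, although the labels name leaves: 7 of 8 listed markers had more than 3 counts in every library, and ESB1, an endodermal gene, had at most 2. Their summed level was 3255 and 3383 CPM in the controls, 3127 and 3182 CPM at 100 µM, and 2053 and 2096 CPM at 1000 µM. It came almost wholly from the beta-glucosidase PYK10. Of the 7 tested markers 4 fell at 1000 µM, where 14.5% of all tested genes fell, with a median log2 change of -0.68. The falls of EXPA7 and COBL9, both root hair genes, were not called without control replicate 1 (adjusted p = 0.196 and 0.0870) or with DESeq2 (0.0736 and 0.0970), nor was that of COBL9 without 1000 µM replicate 1 (0.0644). At 100 µM edgeR called 0 of them, and 0 had an unadjusted p under 0.05. Leaf mesophyll markers summed to 20742 and 22478 CPM in the controls, 20207 and 19843 CPM at 100 µM, and 14278 and 12851 CPM at 1000 µM. Most of this came from RBCS1A and RCA, with means of 11157 and 7896 CPM in the controls. Of the 5 mesophyll markers 3 fell at 1000 µM (RBCS1A, RCA and GAPA), and LHCB1.1 and LHCB2.1 were not called (adjusted p = 0.0613 and 0.807). The part of the root and mesophyll markers in the XTH changes was not tested. The 3 guard cell and the 2 tested shoot apex markers gave 0 calls at either dose in edgeR and 0 unadjusted p-values under 0.05.

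The genes that build xyloglucan were followed beside the XTHs. Of 15 tested, 2 fell at 100 µM, or 13.3% against 3.32% of all tested genes, and 5 fell at 1000 µM. None was called as rising, and the median log2 changes were -0.15 and -0.22. CSLC4 (AT3G28180), a glucan synthase that makes the xyloglucan backbone, had 134 and 131 CPM in the controls, 69.5 and 72.9 CPM at 100 µM, and 69.2 and 71.8 CPM at 1000 µM. Like XTH15, it stood at the same level at both doses. AXY4 (AT1G70230), which acetylates xyloglucan, fell by 1.03 on the log2 scale at 1000 µM (adjusted p = 0.000323), and XLT2 (AT5G62220), which adds galactose, by 0.70 (adjusted p = 0.00126). The fall of XLT2 at 100 µM (log2 change -0.54, adjusted p = 0.0454) was not called without any 1 of the control or 100 µM libraries (adjusted p = 0.217 to 0.329) or with DESeq2 (0.240). Of 5 genes of enzymes that trim xyloglucan side chains, 3 fell at 1000 µM. At 100 µM edgeR called 0 of the 5, with 1 unadjusted p under 0.05. BGAL10 (AT5G63810), a beta-galactosidase, fell by 0.67 on the log2 scale at 1000 µM, AT5G20950 by 0.50 and AXY8 (AT4G34260), a fucosidase, by 0.33. The AXY8 call ended without control replicate 1 or 2 (adjusted p = 0.0972 and 0.126) and with DESeq2 (0.113). The shares called at 1000 µM were 33.3% and 60.0%, next to the 29.6% of all tested genes.

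Brassinosteroids are growth hormones that induce several XTHs. Of 14 tested genes of their synthesis and signalling, edgeR called 0 at 100 µM, where 4 had an unadjusted p under 0.05. At 1000 µM 4 were called, 2 up and 2 down, or 28.6%, close to the share of all tested genes. BAS1 (AT2G26710), which inactivates the hormone, had a log2 change of -0.94 (adjusted p = 0.000125). BR6OX2 (AT3G30180), which makes it, and the co-receptor gene BAK1 (AT4G33430) rose by 0.93 and 0.58 (adjusted p = 0.000336 and 0.000169). The other gene called as falling was BES1 (AT1G19350), with a log2 change of -0.39 (adjusted p = 0.00419).

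Promoter sequences are shown for the 3 largest rises at 1000 µM and for XTH33, XTH16 and XTH15, whose falls were called at both doses under every alternative tried, so that genes moving in opposite directions can be set side by side. Each is the 250 bases before the annotated start, read 5′ to 3′ on the gene's strand in TAIR10.1. Capitals mark matches on either strand to the G-box CACGTG, the brassinosteroid elements CGTGTG or CGTGCG, the auxin element TGTCTC, the W-boxes TTGACC or TTGACT, or the TGA-factor element TGACG. They also mark TATAAA, the TATA motif, on the gene's own strand. The rising genes come first and the falling genes after them.
XTH31 (chr3:16448845-16449094, minus strand): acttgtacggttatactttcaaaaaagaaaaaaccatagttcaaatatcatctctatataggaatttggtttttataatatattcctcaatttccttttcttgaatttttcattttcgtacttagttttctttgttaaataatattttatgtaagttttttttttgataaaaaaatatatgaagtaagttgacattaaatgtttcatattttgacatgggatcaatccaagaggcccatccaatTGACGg
XTH23 (chr4:13128144-13128393, plus strand): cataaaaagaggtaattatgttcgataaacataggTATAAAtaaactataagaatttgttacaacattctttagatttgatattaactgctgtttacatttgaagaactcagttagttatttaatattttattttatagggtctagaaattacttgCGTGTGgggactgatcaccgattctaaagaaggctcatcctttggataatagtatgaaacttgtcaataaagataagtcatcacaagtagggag
XTH30 (chr1:11575070-11575319, plus strand): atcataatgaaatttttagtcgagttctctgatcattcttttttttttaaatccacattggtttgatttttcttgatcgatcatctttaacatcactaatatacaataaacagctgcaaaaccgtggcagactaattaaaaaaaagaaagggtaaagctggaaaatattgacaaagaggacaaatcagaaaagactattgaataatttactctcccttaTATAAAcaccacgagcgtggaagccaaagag
XTH33 (chr1:3481042-3481291, minus strand): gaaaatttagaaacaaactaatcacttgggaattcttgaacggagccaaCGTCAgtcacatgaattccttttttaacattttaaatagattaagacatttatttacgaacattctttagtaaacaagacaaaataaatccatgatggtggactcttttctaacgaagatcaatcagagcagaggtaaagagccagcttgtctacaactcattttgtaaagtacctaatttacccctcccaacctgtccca
XTH16 (chr3:8549787-8550036, plus strand): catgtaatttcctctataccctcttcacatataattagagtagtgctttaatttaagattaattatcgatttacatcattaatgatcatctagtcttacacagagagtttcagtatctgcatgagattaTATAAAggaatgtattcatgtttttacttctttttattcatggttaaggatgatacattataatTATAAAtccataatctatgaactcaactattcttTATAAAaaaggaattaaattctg
XTH15 (chr4:8138393-8138642, minus strand): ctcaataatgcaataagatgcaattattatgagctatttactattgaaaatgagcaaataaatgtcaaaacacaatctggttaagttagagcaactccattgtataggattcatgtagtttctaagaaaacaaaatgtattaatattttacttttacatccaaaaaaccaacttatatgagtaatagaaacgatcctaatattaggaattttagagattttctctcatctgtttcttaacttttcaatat
The XTH15 window holds none of these motifs. XTH31 and XTH33, which changed in opposite directions, both hold 1 match to TGACG, a motif of TGA factors. It was found in 5 of the 33 XTH promoters and in 18.6% of the 26711 windows taken the same way. XTH23 holds CGTGTG, bound by brassinosteroid factors. This motif was in 4 of 33 members, 1 of 6 rising and 2 of 13 falling (XTH8 and XTH25), and in 5.37% of all promoters. The G-box CACGTG was in 0 of 33 members and 6.58% of all promoters. TTGACT, a W-box of WRKY factors, was in 2 of the 6 rising members (XTH18 and XTH22), in 0 of the 13 falling ones and in 19.1% of all promoters. TATAAA was in 3 of 6 rising and 8 of 13 falling members and in 33.3% of all promoters. TTGACC, also a W-box, was in 4 members, 0 of 6 rising and 2 of 13 falling (XTH8 and XTH20), and in 12.2% of all promoters. TGTCTC was in 2 members and 10.9% of all promoters, and CGTGCG in 0 members and 1.58%. CANNTG, which includes CACGTG, was in 21 members, 5 of 6 rising and 11 of 13 falling, and in 55.3% of all promoters. A match is a string of letters and not a binding site.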

How the data were processed

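RNA sequencing was analysed in 6 libraries, 2 for each of the 3 melatonin doses, grouped by the treatment in the labels. The deposited table gives the authors' read counts per gene as whole numbers, unscaled as far as the values show. The submitters' processing notes list HTSeq 0.6.1, DESeq 1.18.0, TopHat2 2.0.12 and Bowtie2 2.2.3, with the build TAIR10. What each was used for, and whether strand was used, is not given. Overlapping genes and near-identical XTHs are therefore less certain.

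Tests were made with edgeR 4.0.16 in R 4.3.3 (filterByExpr, TMM, then glmQLFit with glmQLFTest). Every library entered the fit, and dose group was its only term, with 3 residual and 14.1 prior degrees of freedom. The coefficient of variation between libraries, from edgeR's common dispersion, was 7.78%, and it could be technical. Of 32678 genes 18380 were tested, with Benjamini-Hochberg adjustment over all of them at 0.05. The SE was obtained as the log2 change over the root of F, and 95% intervals use the t distribution. Libraries of one dose differed beyond sampling noise: chi-square per degree of freedom was 1.92 (control), 1.81 (100 µM) and 5.43 (1000 µM).

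Gene models, exon lengths, coding identities (global alignment) and promoters came from RefSeq's TAIR10.1, whose annotation and genome were used together and joined to the counts by locus identifier only. The count table has no coordinates to compare with it. All 33 members are reported, and of each pathway list up to 3 genes with the smallest adjusted p at 1000 µM. BES1 is given besides, as the remaining brassinosteroid gene called there. Members and lists were chosen with earlier results of these data known, so no p was adjusted over a list. The procedure was tried on counts simulated with the same spread for all genes and libraries. The real 1000 µM libraries differed more than the others, so the simulation cannot show that calls hold under unequal spread. Alternatives were RLE scaling, DESeq2 1.42.0, no filter, fitting only the compared groups, a replicate block and leaving out each library.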

Additional observations from a re-analysis of the deposited data

How the results depend on the processing

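Of the 8 members called at 100 µM, XTH15, XTH16, XTH31 and XTH33 were called under all 11 alternatives. So were 16 of the 19 called at 1000 µM, all but XTH19, XTH22 and XTH26, and 7 of the 12 called between the doses (XTH6, XTH14, XTH18, XTH23, XTH30, XTH31 and XTH33). The number of members called at 100 µM was 5 with DESeq2 (334 genes in all instead of 610), 11 without a filter (1091 in all) or with only the 2 groups compared (1697 in all), and 4 to 11 when 1 library was left out. It was 17 at 1000 µM and 11 between the doses with DESeq2 (3188 and 1567 genes in all). Leaving out 1 library moved both counts, and the number of all genes called moved too. RLE scaling left 8, 19 and 12 members called, with 597, 5417 and 2909 genes in all. Of the xyloglucan, brassinosteroid and touch genes together, 3, 14 and 7 were called in the 3 comparisons; DESeq2 called 2 between the doses, and leaving out 1 library gave 1 to 7, 9 to 17 and 1 to 10. The cause was not tested.

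With replicate number as a block, 7, 18 and 10 members and 1, 12 and 5 of the pathway genes were called. The totals over all genes were then 446, 4959 and 2508. Among these genes the block ended the calls of XTH17 at 100 µM (adjusted p = 0.0720), XTH22 at 1000 µM (0.0729), XTH4 and XTH9 between doses (0.0846 and 0.0722), TCH3 at both doses (0.0720 and 0.0528), XLT2 at 100 µM (0.0705), XXT1 at 1000 µM (0.0508), and BRI1 and BZR1 between doses (0.0753 and 0.0609). The correlations of same-numbered deviations, 0.028, -0.031 and -0.066, give no sign that the numbers pair the libraries.

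Directions turned only in comparisons where the member was not called. Leaving out 1 library gave log2 changes of -0.17 to 0.44, -0.14 to 0.47 and -0.16 to 0.26 for XTH5 (100 µM, 1000 µM and between doses), -0.31 to 0.12, -0.16 to 0.26 and -0.013 to 0.31 for XTH11, and -0.16 to 0.049 for XTH12 at 100 µM. It gave -0.24 to 0.11 and -0.29 to 0.062 for XTH7 at 1000 µM and between doses, and -0.72 to 0.0057 and -0.46 to 0.27 for XTH13 at 100 µM and between doses. Between doses, XTH17 ranged from -0.74 to 0.16 and XTH15 from -0.087 to 0.092, and XTH15 was 0.00099 with RLE scaling and 0.0056 with DESeq2. With 2 libraries a dose, intervals of members under 10 CPM are wide, such as -0.62 to 0.90 for XTH5 at 1000 µM, although XTH20 and XTH26 were called there.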
